A study of Mus musculus with 3 samples.

Results

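Cholangiocytes, the epithelial cells that line bile ducts, were followed in single-cell RNA profiles of liver non-parenchymal cells from mice with a growing breast tumour and from mice without one. They were picked from the data: a cell was counted when transcripts of at least 3 of 6 biliary epithelial genes (Epcam, Krt19, Krt7, Cldn7, Tspan8 and Sox9) were detected in it. Of 20913 cells with at least 200 detected genes and at most 20% mitochondrial transcripts, 65 met this rule. The day 4 library held 22 of them, the day 21 library 24 and the control library 19. Each group was 1 library. All mice were female and of the Balb\c strain. The day 4 mice had received orthotopic 4T1 cells, a Balb\c mammary carcinoma line, 4 days before and were labelled as 8 weeks old. The day 21 mice had carried the same cells for 21 days and were labelled as 11 weeks old. The controls had received PBS and were labelled as 8 weeks old, so the day 21 library differed from the control in age as well as in tumour. How many livers entered each library, and on which day the control liver was taken, were not stated. Livers were perfused and dissociated before capture on the 10x Genomics 3′ platform, which counts transcripts as unique molecular identifiers (UMIs).

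Cholangiocytes modify hepatocyte bile by secreting bicarbonate, chloride and water and by reabsorbing glucose and bile acids, and each carries a primary cilium that senses flow. Their identity is set by factors such as Sox9 and Onecut1/2 and by Notch signalling through Jag1, Notch2 and Hes1. In injured livers they proliferate and remodel as a ductular reaction, in which YAP, the co-activator held back by the Hippo kinases, drives TEAD-bound genes such as Cyr61, Ctgf and Ankrd1. They are a small minority of liver cells.

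The 65 cells held 280922 UMIs on day 4, 155791 on day 21 and 261599 in the control. A cholangiocyte had a median of 10675.5 UMIs on day 4 (range 6018 to 24541), 4840.5 on day 21 (3053 to 22130) and 10838 in the control (5495 to 31822). The other cells of the same libraries had medians of 4443, 3137.5 and 4200 UMIs on day 4, on day 21 and in the control. Day 21 cholangiocytes were thus read at less than the depth of the others, and a missing transcript in them says less. No cell barcode was shared between cholangiocytes of different libraries. With 1 library per group there was no test between groups. Every interval below is a 95% interval for counting error and holds neither the spread between mice nor the spread between cells.

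Genes that the rule did not use changed sharply at its threshold. Cells with exactly 2 of the 6 markers numbered 5 on day 4, 2 on day 21 and 3 in the control, and all 10 had 0 UMIs of Spp1, which encodes the secreted phosphoprotein osteopontin. Cells with exactly 3 markers numbered 0 on day 4, 3 on day 21 and 5 in the control, and each held between 45 and 442 Spp1 UMIs. Of 289 cells with 1 marker, 13 had Spp1. Clu, which encodes the secreted chaperone clusterin, changed in level and not in presence. It was detected in all 65, with at least 22 UMIs each. It was also detected in 5 of the 10 cells with 2 markers, with at most 8 UMIs each, and in 43 of the 289 with 1 marker. When all 20913 cells were clustered together, 60 of the 65 formed a cluster of their own with no other cell in it. The other 5 were spread over 4 clusters. A day 4 cell and a control cell lay in a cluster led by Foxf1 and Carmn, and 3 day 21 cells lay in clusters led by Cd209g and C1qb, by Fabp1 and Sult3a1, and by a set of genes that includes Alpl and Timp1.

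**Figure D1:**
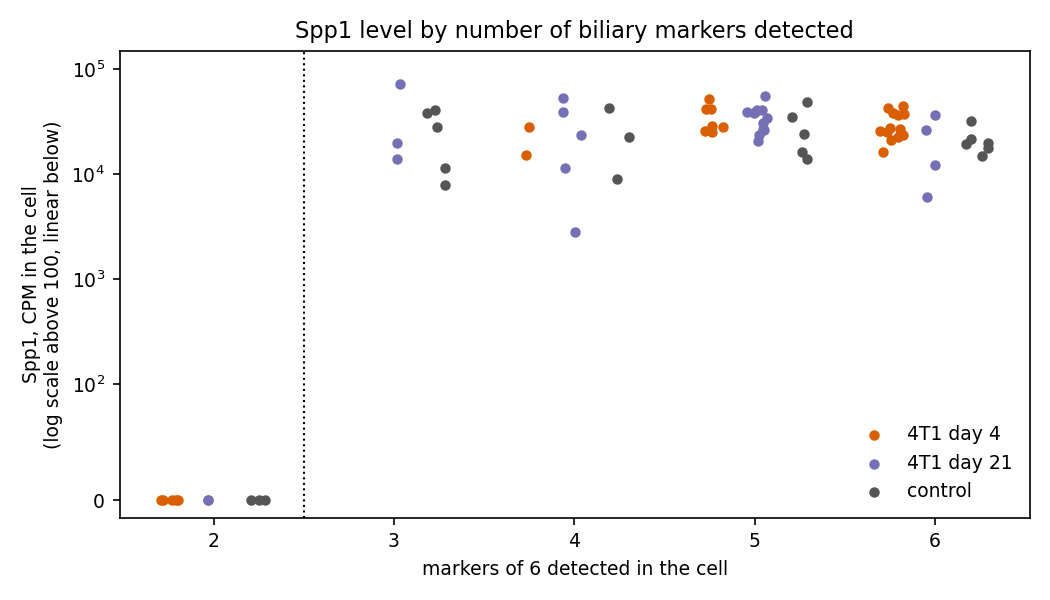
Spp1 level in CPM of the cell (vertical axis, logarithmic above 100 and linear below) against the number of the 6 rule markers detected (horizontal axis), for cells with 2 or more markers. Each point is 1 cell, coloured by library, and the dotted line is the threshold: the 10 cells left of it have 0 Spp1 UMIs and the 65 right of it all have Spp1.

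The label cholangiocyte fitted the further biliary genes. Spp1 stood at 30767 CPM, the UMIs of a gene scaled to a fixed total of the summed cholangiocyte UMIs, on day 4, 26446 on day 21 and 22565 in the control, against 4.85, 19.6 and 4.28 CPM in all other cells of those libraries. Clu stood at 19849 CPM on day 4, 23005 on day 21 and 14828 in the control, against 75.6, 27.4 and 67.9 CPM in the other cells. Tm4sf4, a tetraspan membrane protein of biliary and gut epithelium, stood at 1816, 1996 and 1590 CPM in cholangiocytes of day 4, day 21 and the control, and at no more than 5.58 CPM in the other cells. These contrasts follow from picking epithelial cells and are a description. The rule genes chose the cells, and their counts are given for the same purpose. Epcam was detected in all 65 cells, with 354 UMIs on day 4, 136 on day 21 and 285 in the control. Sox9, the biliary transcription factor, had 94 UMIs in 22 of 22 day 4 cells, 53 in 20 of 24 day 21 cells and 41 in 14 of 19 control cells. Krt19 and Krt7, the ductal keratins, had 71 and 34 UMIs on day 4, 34 and 18 on day 21 and 59 and 12 in the control. The tight junction gene Cldn7 and the tetraspanin gene Tspan8 had 120 and 191, 64 and 133, and 71 and 128.

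Outside the rule genes, the 25 genes with the highest ratio to all other cells were led by Sftpd, the secreted collectin surfactant protein D, which had 153 UMIs on day 4, 84 on day 21 and 68 in the control and none in any other cell. Next came the tight junction genes Cldn6 and Cldn8, the antimicrobial-type secreted protein gene Wfdc15b, and Plet1, a surface protein of epithelial progenitors. Slc5a1, the sodium-glucose cotransporter that recovers glucose from bile, had 68, 35 and 55 UMIs on day 4, on day 21 and in the control. Pkhd1, which encodes the ciliary protein fibrocystin mutated in polycystic liver and kidney disease, had 73, 46 and 43 UMIs. Krt23, Ehf, an epithelial ETS factor, and Ddit4l, an inhibitor of mTOR signalling, belonged to the same 25. Ankrd1 was also among them.

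Genes of secretin-driven bile formation were barely detected. Cftr, the chloride channel, had 1 UMI on day 4 and 0 on day 21 and in the control. Sctr, the secretin receptor, had 1, 2 and 2 UMIs. These counts lie within the limit of 3 that a count of 0 allows. Slc10a2, the apical bile acid transporter, had 6, 7 and 1 UMIs and was too low to be compared at the minimum of 30 UMIs used below. Hnf4a, the hepatocyte factor named in the study's title, had 6, 5 and 3 UMIs in cholangiocytes of day 4, day 21 and the control. The lists for mesothelium, 4T1-type tumour epithelium and pancreatic or intestinal epithelium summed to at most 14, 6 and 10 UMIs in any of the 3 libraries, and Krt14, a basal keratin of the tumour list, and Upk3b, a mesothelial marker, were at 0 throughout. The proliferation gene Mki67 had 2 UMIs on day 4 and 0 in the other 2 libraries.

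Transcripts of other liver cells were found in part of the cholangiocytes, unevenly between libraries. At least 3 genes of a sinusoidal endothelial, Kupffer or stellate marker list, or 2 of a leukocyte list other than S100a8 and S100a9, were detected in 9 of 22 cells on day 4, 5 of 24 on day 21 and 9 of 19 in the control. Endothelial markers were the most frequent, in 7, 3 and 9 cells. Cells with such markers were deeper, with median UMIs of 13807 on day 4, 7164 on day 21 and 19664 in the control, against 10537, 4584 and 8429.5 in the cells without them. The 10 endothelial markers together came to 1538 CPM on day 4, 1906 on day 21 and 3819 in the control, and the 10 stellate and fibroblast markers to 1513, 514 and 4102 CPM. The 10 Kupffer cell and macrophage markers came to 29 UMIs on day 4, 121 on day 21 and 16 in the control, and the 6 erythroid markers to 21, 239 and 11. The 14 leukocyte markers came to 32, 236 and 2 UMIs, most of them S100a8 and S100a9 on day 21. The doublet caller Scrublet marked 0, 2 and 0 cholangiocytes in the 3 libraries. Values without the cells that carried other-lineage markers (13, 19 and 10 cells left) are therefore given beside several of the results. Hepatocyte genes were not part of that rule, so the 19 day 21 cells include 1 with 8.92% hepatocyte UMIs.

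**Figure D2:**
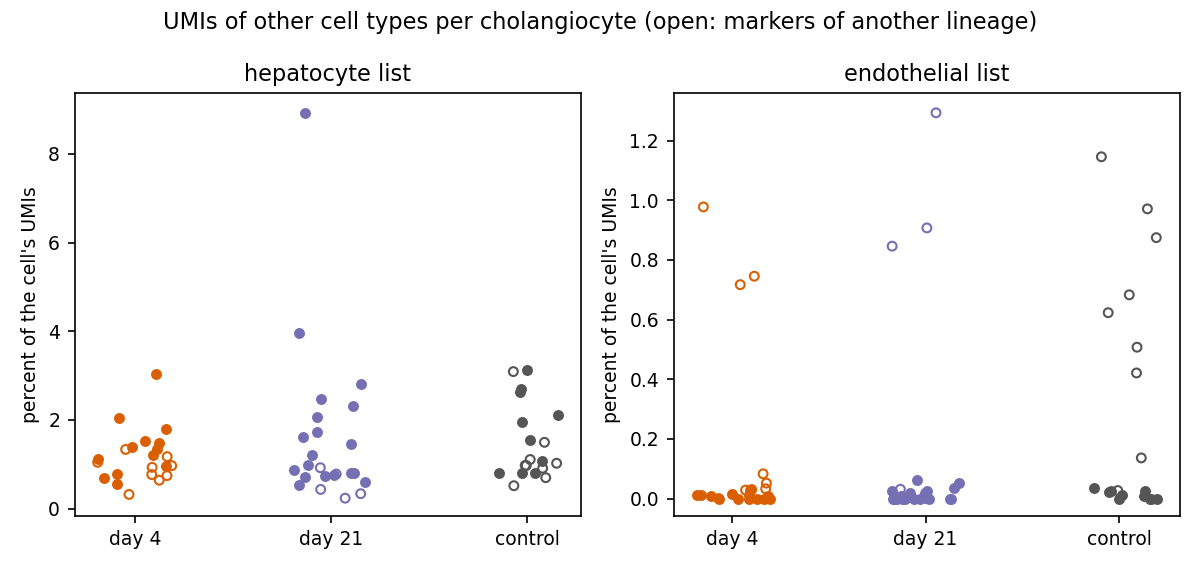
Share of each cholangiocyte's UMIs (percent, vertical axes) that came from the hepatocyte list (left) and the endothelial list (right), by library. Each point is 1 cell, and open circles are cells with markers of another lineage. 1 day 21 cell reached 8.92% hepatocyte UMIs, and the cells above 0.1% endothelial UMIs are all open circles.

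Cholangiocytes made up 0.399% of the cells on day 4 (22 of 5509, exact Clopper-Pearson interval 0.25 to 0.604), 0.225% on day 21 (24 of 10670, 0.144 to 0.334) and 0.401% in the control (19 of 4734, 0.242 to 0.626). The share on day 4 over that in the control was 0.992 (interval 0.541 to 1.82). The share on day 21 over that in the control was 0.557 (0.308 to 1.01), an interval that reaches 1. The denominator changed between libraries: there were 0.778 cholangiocytes per 100 endothelial-marker cells on day 4, 1.23 on day 21 and 0.729 in the control. The lower share on day 21 was thus not found when endothelial cells were the measure. Those cells were themselves picked by 3 of 6 genes, at median depths of 4979.5, 2845 and 5030 UMIs on day 4, on day 21 and in the control. How far depth changed their number was not tested. With the cholangiocyte rule applied to cells reduced to 2000 UMIs, the shares were 0.380%, 0.239% and 0.280%. Without the cells carrying other-lineage markers the shares were 0.236%, 0.178% and 0.211% on day 4, on day 21 and in the control.

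The question for gene expression was which cholangiocyte transcripts differed between livers of tumour-bearing mice and the control liver. Ratios were taken between CPM of summed UMIs with 0.5 added to each sum, for genes with at least 30 UMIs over the cholangiocytes of both libraries, and are given as log2. A gene was counted as different at 2-fold or more. On day 4, 256 of 3259 genes (7.86%) were 2-fold different from the control, 80 higher (2.45%) and 176 lower (5.4%). On day 21, 268 of 2515 genes (10.7%) were, 99 higher (3.94%) and 169 lower (6.72%). The 2 comparisons share the control library. Since genes low in both libraries do not reach 30 UMIs, a gene that was high in 1 library alone could only be measured as different.

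Among genes seen in at least 20% of the cholangiocytes of the higher library, at a level no lower than in its other cells, targets of YAP gave the largest ratios on both days. Cyr61 (also Ccn1), a secreted matricellular protein and a direct YAP/TEAD target, had 80 UMIs in 15 of 22 cells on day 4, 135 in 21 of 24 cells on day 21 and 12 in 6 of 19 control cells. The levels were 285, 867 and 45.9 CPM. The day 4 level was 6.0-fold that of the control (log2 2.58, interval 1.75 to 3.65), and the day 21 level was 18.2-fold (log2 4.19, 3.39 to 5.23). Ctgf (also Ccn2), a related matricellular protein that promotes fibrosis, had 36 UMIs in 10 day 4 cells, 117 in 16 day 21 cells and 7 in 5 control cells, or 128, 751 and 26.8 CPM. Its log2 ratio to the control was 2.18 (1.07 to 3.67) on day 4 and 4.72 (3.72 to 6.16) on day 21. Ankrd1, a nuclear ankyrin repeat protein and YAP target, had 17 UMIs in 8 cells, 78 in 14 cells and 8 in 4 cells on day 4, on day 21 and in the control. Its day 21 ratio was 15.5-fold (log2 3.95, 2.98 to 5.29). On day 4, with 25 UMIs in both libraries together, it was below the minimum. All 3 genes were thus highest on day 21 and lowest in the control.

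Between the tumour libraries, Cyr61 was higher on day 21 than on day 4 by log2 1.60 (1.20 to 2.02), Ctgf by 2.54 (2.00 to 3.13) and Ankrd1 by 3.02 (2.28 to 3.90). Of 2571 genes compared between those libraries 217 (8.44%) were 2-fold different, 105 higher on day 21 (4.08%) and 112 lower (4.36%).

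The YAP list held 16 genes, of which 7 reached the minimum on day 4 and 8 on day 21. Over all genes 2.45% were at least 2-fold higher than in the control on day 4 and 3.94% on day 21. On day 4, 2 of the 7 were at least 2-fold higher and none was lower, with a list median of log2 0.37 against 0.01 over all genes. On day 21, 4 of the 8 were higher and none was lower, with a median of 0.77 against -0.03 over all genes. The fourth gene was Amotl2, an angiomotin that binds YAP, at 12, 21 and 11 UMIs on day 4, on day 21 and in the control (day 21 log2 1.65). The co-activator Wwtr1 (TAZ) and the DNA-binding partner Tead1 were not 2-fold different, at log2 -0.65 and 0.37 on day 4 and -0.17 and -0.11 on day 21. The same held for Gadd45b and Crim1, at -0.17 and -0.68 on day 21. Yap1 itself had 10, 5 and 7 UMIs and was below the minimum. The 2-fold differences therefore lay in 4 of the targets.

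UMIs of the 3 leading genes were also counted jointly in each cell. Such counts follow in part from how many cells held each gene, and whether they exceed that was not tested. UMIs of at least 2 of Cyr61, Ctgf and Ankrd1 were found in 10 of 22 cells on day 4, 18 of 24 on day 21 and 3 of 19 in the control. All 3 genes were found in 3, 10 and 0 cells. None of them was found in 2, 1 and 7 cells. When each cholangiocyte was reduced to 3000 UMIs drawn from its own, which left out no cell, Cyr61 was detected in 9, 21 and 3 cells of day 4, day 21 and the control, Ctgf in 5, 14 and 1, and Ankrd1 in 4, 13 and 2. At equal depth each of the 3 genes was again found in the most cells on day 21.

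The day 21 ratios of these 3 genes stayed above 2-fold with cells left out, while the day 4 interval of Ctgf then reached 0. Without the cells carrying other-lineage markers, Cyr61 was higher by log2 1.25 (0.27 to 2.47) on day 4 and 2.91 (2.04 to 4.08) on day 21, Ctgf by 1.45 (-0.0031 to 3.6) and 3.84 (2.59 to 5.91), and Ankrd1 by 4.47 (2.87 to 7.85) on day 21. Without the deepest cholangiocyte of each library the day 21 ratios were 4.05 for Cyr61, 4.88 for Ctgf and 3.89 for Ankrd1. Across the alternatives the day 21 ratios ranged between 2.55 and 4.55 for Cyr61, 3.84 and 5.45 for Ctgf, and 3.59 and 4.62 for Ankrd1. On day 4 they ranged between 0.72 and 2.90 for Cyr61 and between 0.17 and 2.82 for Ctgf.

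Endothelial-marker cells of the same libraries gave a comparison within the same preparations. Cyr61 stood there at 10.1 CPM on day 4, 159 on day 21 and 19.4 in the control, a log2 ratio of -0.94 on day 4 and 3.03 on day 21. Ctgf stood at 99.8, 161 and 124 CPM, with log2 ratios of -0.31 and 0.38. Ankrd1 had no UMI in any of them. At 3000 UMIs per cell, Cyr61 was detected in 2.37%, 22.2% and 4.13% of 2027, 878 and 1718 endothelial-marker cells, whose median depth before that was 4979.5, 2845 and 5030 UMIs. Ctgf was detected in 17.9%, 22.9% and 21.8% of them. A higher Cyr61 on day 21 was thus common to both cell types. Ctgf passed 2-fold in cholangiocytes and not in endothelial-marker cells, a contrast between cell types that was not tested. Ankrd1, without a UMI in endothelial-marker cells, could not be compared there. Endothelial-marker cells under 3000 UMIs were left out of those shares.

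The upstream sequences of Cyr61 and Ankrd1 are shown because both genes were highest on day 21 and both hold a match to GGAATG, the core element bound by TEAD factors. It was searched without mismatch on both strands of 300-base RefSeq windows, 250 bases before to 50 after a start site, of mouse build GRCm38.p6. It lies in 14.7% of all 32851 windows and in 10 of the 12 genes of the YAP list that have a window, F3 and Gadd45b being those without. Cyr61 holds 1 match on the other strand, read here as CATTCC, 103 bases before the start site. Ankrd1 holds 2 matches, 210 and 123 bases before it. The 250 bases before the start sites, 5′ to 3′, are chr3:145649986-145650235 on the minus strand and chr19:36119845-36120094 on the minus strand, with the matches in capitals.
Cyr61: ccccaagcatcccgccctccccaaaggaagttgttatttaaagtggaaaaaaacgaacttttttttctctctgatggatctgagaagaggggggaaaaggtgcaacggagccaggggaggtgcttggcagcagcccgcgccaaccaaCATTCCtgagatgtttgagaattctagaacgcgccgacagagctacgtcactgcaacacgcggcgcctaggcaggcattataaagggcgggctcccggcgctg
Ankrd1: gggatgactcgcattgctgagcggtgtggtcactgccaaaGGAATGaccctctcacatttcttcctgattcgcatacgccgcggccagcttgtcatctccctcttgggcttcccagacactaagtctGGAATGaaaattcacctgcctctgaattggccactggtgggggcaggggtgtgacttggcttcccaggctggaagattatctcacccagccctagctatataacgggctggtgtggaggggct
A match is a description of these letters and not evidence of binding. The windows of Atf3 and Klf6, also higher on day 21 as given below, were searched for GGAATG too and hold no match. Ctgf, Hes1, Hbegf and Sftpd had no entry in the table.

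**Figure D3:**
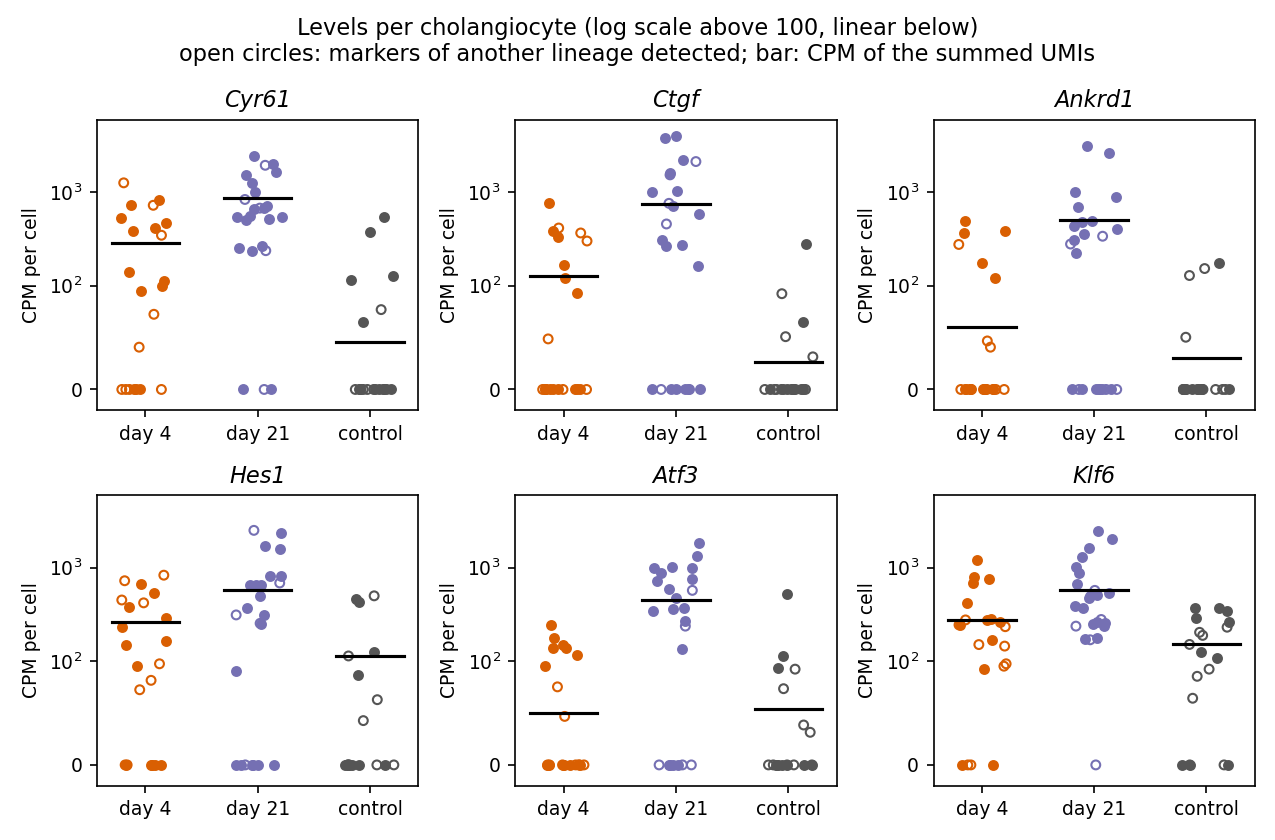
Level of 6 genes in each cholangiocyte (CPM of the cell, vertical axes, logarithmic above 100 and linear below) by library. Points are cells, open circles are cells with other-lineage markers, and the bar is the CPM of the summed UMIs. Cyr61 is above 0 in 15 of 22 day 4 cells, 21 of 24 day 21 cells and 6 of 19 control cells, and the highest Ctgf and Ankrd1 cells are of day 21.

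The Notch effector Hes1, a transcriptional repressor needed for bile duct formation, was also higher. It had 73 UMIs in 15 cells on day 4, 89 in 17 cells on day 21 and 30 in 8 cells of the control, or 260, 571 and 115 CPM. The log2 ratio was 1.17 (0.55 to 1.84) on day 4 and 2.30 (1.71 to 2.96) on day 21. In endothelial-marker cells the ratios were 0.91 and 1.66. Without cells carrying other-lineage markers the cholangiocyte ratios were 0.69 (-0.23 to 1.77) and 1.80 (0.96 to 2.83). The ligand gene Jag1 had 17, 20 and 11 UMIs, with a day 21 log2 ratio of 1.58 (0.48 to 2.82; 1.19 without those cells), and the receptor gene Notch2 had 21, 11 and 24 UMIs and was not 2-fold different (day 21 log2 -0.34). Only 3 of the 16 listed Notch genes reached the minimum on day 21, and 2 of them were higher. Over all genes measured on day 21, 3.94% were at least 2-fold higher.

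Atf3 and several immediate early genes were higher on day 21 than in the control. Atf3, a stress-induced transcription factor, had 14 UMIs in 9 cells on day 4, 70 in 17 cells on day 21 and 14 in 7 cells of the control. It differed from the control on day 21 by log2 3.03 (2.23 to 4.01) and on day 4 by -0.10 (-1.28 to 1.08), an interval that holds 0. At 3000 UMIs per cell Atf3 was detected in 4, 16 and 2 cholangiocytes, and in 1.28%, 6.15% and 1.05% of endothelial-marker cells. Of the 16 immediate early genes 13 were measured on day 21, with 6 at least 2-fold higher, 1 lower and a median of log2 0.91. The 6 were Atf3, Ier3 (2.15), Fos (1.13), Egr1 (1.10), Ier2 (1.08) and Dusp1 (1.01), and the lower one was Klf2 (-1.07). On day 4, 12 were measured, of which Jun (1.09) and Fosb (1.06) were higher and Klf2 (-1.59) lower, with a median of 0.63. Over all genes 2.45% were higher and 5.4% lower on day 4, and 3.94% and 6.72% on day 21. In endothelial-marker cells on day 21 the log2 ratios of Atf3, Ier3, Fos, Egr1 and Ier2 were 2.56, 1.78, 1.05, 1.36 and 1.66, so these genes were higher there too. On day 4 the endothelial ratios of Jun and Fosb were -0.45 and -0.72. Without cells carrying other-lineage markers, Atf3 was higher by 2.23 (1.32 to 3.41) on day 21, and the list medians were 0.26 on day 4 and 0.72 on day 21. In those cells 2 of 11 measured genes were at least 2-fold higher on day 21, Atf3 and Zfp36 (1.37), while Fos (0.76), Egr1 (0.97), Ier2 (0.75) and Dusp1 (0.30) were not. Over all 1069 genes measured in those cells on day 21, 6.08% were at least 2-fold higher. Of 13 genes measured between the tumour libraries, 2 were at least 2-fold higher on day 21 than on day 4, with a list median of 0.23.

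Klf6, a zinc finger factor of injured epithelium, had 78 UMIs in 18 cells on day 4, 90 in 23 cells on day 21 and 40 in 14 cells of the control. Its log2 ratio was 0.85 (0.29 to 1.45) on day 4 and 1.91 (1.37 to 2.49) on day 21, against -0.70 and 0.86 in endothelial-marker cells. Without cells carrying other-lineage markers it was 1.08 (0.31 to 1.98) and 1.81 (1.08 to 2.69). Hbegf, a ligand of the EGF receptor, had 9, 27 and 6 UMIs, and was higher on day 21 by log2 2.83 (1.61 to 4.48). Tnfrsf12a, the receptor Fn14 for the cytokine TWEAK that drives ductular growth, had 27, 36 and 15 UMIs, with log2 0.72 (-0.22 to 1.76) on day 4 and 1.98 (1.11 to 2.99) on day 21. In the cells without other-lineage markers Hbegf had 5, 20 and 0 UMIs, and the Tnfrsf12a ratios were 0.92 and 1.54. Tff2, a secreted trefoil peptide of mucosal repair, had 11 UMIs in 7 cells on day 4, 10 in 3 cells on day 21 and 0 in the control. Against a floor of 3 counts in the control it was at least 3.41-fold higher on day 4 and at least 5.6-fold higher on day 21, with so few UMIs that 3 cells carried the day 21 value.

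Among the day 4 genes with the largest ratios, Pdgfd, a platelet-derived growth factor ligand, had 32 UMIs on day 4, 12 on day 21 and 9 in the control (day 4 log2 1.67, 0.63 to 2.98). Ifi27l2b, of an interferon-inducible gene family, had 50, 16 and 12 UMIs (1.91, 1.03 to 3.0), and its reads may be shared with the near-identical Ifi27l2a. Ppp2r2b, a regulatory subunit of protein phosphatase 2A, had 27, 7 and 7 UMIs (1.77), and Csnk1g2, a casein kinase, had 32, 14 and 9 (1.67). Jkamp, Pipox, Mrpl28 and Tia1 completed the 10 genes, with log2 ratios between 1.54 and 1.77 from 23 to 30 UMIs on day 4.

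Most genes of the biliary identity list were less than 2-fold different from the control. The 6 rule markers chose the cells, so their ratios are a description only and do not bear on that. Of them, Krt7 and Sox9 were at least 2-fold higher on both days. None of the 6 was 2-fold lower, and their median log2 ratio was 0.56 on day 4 and 0.70 on day 21. The biliary identity list had a median log2 ratio of 0.45 on day 4 and 0.28 on day 21, and 0.32 and 0.11 without the cells carrying other-lineage markers. Of its 24 genes 23 were measured on day 4 and 20 on day 21. On day 4, 2 of them were at least 2-fold higher, Ddit4l (1.08) among them, and on day 21 Ddit4l (1.67) and Spint2 (1.0) were. None was 2-fold lower. Spp1 differed from the control by log2 0.45 (0.40 to 0.50) on day 4 and 0.23 (0.17 to 0.29) on day 21. Without the cells carrying other-lineage markers these became 0.11 (0.05 to 0.18) and -0.02 (-0.09 to 0.05). Clu differed by 0.42 (0.36 to 0.48) and 0.63 (0.57 to 0.70), and by 0.38 and 0.43 without those cells. Both Spp1 differences were thus closer to 0 without those cells.

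Apart from Krt7, keratins, junctions and cilia were close to the control as well. None of 13 measured genes of the keratin and junction list, to which Krt7 does not belong, was 2-fold different on either day. The list medians were 0.29 on day 4 and 0.17 on day 21. Krt8 and Krt18, the simple epithelial keratins, differed by log2 0.59 and 0.69 on day 4 and by 0.56 and 0.44 on day 21. Of the primary cilium list, 6 genes on day 4 and 5 on day 21 were measured and none was 2-fold different. In the bile secretion and transport list 8 genes were measured on each day. Car2, the carbonic anhydrase, was higher on day 4 (log2 1.03, from 38 UMIs on day 4 and 17 in the control), and Abcc3, a basolateral export pump, on day 21 (1.35). With cells of other-lineage markers left out, the Car2 ratio was 0.12 on day 4 and -0.39 on day 21, so it no longer reached 2-fold on day 4. Aqp1, a water channel of bile ducts that sinusoidal endothelium also expresses, was lower on both days (-1.24 and -1.04), but only 0, 1 and 2 of its UMIs lay in cholangiocytes without other-lineage markers.

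Genes of antigen presentation were close to the control. A few mucosal and chemokine list genes passed 2-fold on day 21, C3 and Ccl2 mostly through 1 cell. H2-K1 and H2-D1, the class I antigen-presenting molecules, stood at 2082 and 3428 CPM on day 4, 2189 and 3062 on day 21 and 1422 and 2886 in the control. None of 10 measured interferon gamma and antigen presentation genes on day 4, and none of 9 on day 21, was 2-fold different. B2m, the class I light chain, passed 2-fold on day 21 when cells with other-lineage markers were left out (1.11, and 0.64 with all cells). The hepatocyte-rich cell described below was among the cells kept and held 90 B2m UMIs, 26.9% of those of all day 21 cholangiocytes. Of 8 measured mucosal defence genes none was 2-fold different on day 4 (median 0.09), and C3 alone was on day 21 (median 0.69, and 0.56 without those cells), most of its UMIs lying in 1 cell. Of the type I interferon list none of 7 measured genes was 2-fold different on day 4 (median 0.02), and 1 of 4 was lower on day 21 (median -0.65). Of the chemokine and NF-kB list none of 3 was on day 4 (median -0.32). On day 21, 2 of 5 were higher, Ccl2 and Vcam1, and Nfkbia was lower, with a median of 0.66. The hepatocyte-rich cell described below held 35 of the 36 Ccl2 UMIs and 8 of the 24 Vcam1 UMIs of day 21. Another 7 Vcam1 UMIs lay in a cell that Scrublet marked. Pigr, which carries immunoglobulin A into bile, had 132, 68 and 134 UMIs (log2 -0.12 and -0.23). Cp, the copper-carrying ferroxidase ceruloplasmin, had 494, 373 and 412 UMIs and differed by 0.16 (-0.03 to 0.35) on day 4 and 0.60 (0.40 to 0.81) on day 21. Lcn2, the siderophore-binding lipocalin, had 38, 40 and 35 UMIs. Its day 21 log2 ratio of 0.94 (0.25 to 1.64) stood beside 5410 CPM of Lcn2 in the other day 21 cells and 12.4 CPM in the other control cells. In the unfolded protein response list none of 11 genes was 2-fold different on day 4 and 1 of 10, Herpud1, was lower on day 21.

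The genes lower in cholangiocytes of tumour-bearing mice included several that glucocorticoids are known to induce. Cdkn1a, the cell cycle inhibitor p21, had 2 UMIs on day 4, 3 on day 21 and 30 in 12 of 19 control cells. Its log2 ratio was -3.71 (-7.12 to -2.03) on day 4 and -2.38 (-4.93 to -0.89) on day 21. Trp53inp1, a p53-induced regulator of autophagy, had 31 UMIs in 15 cells, 23 in 13 cells and 131 in 18 cells on day 4, on day 21 and in the control, with ratios of -2.16 (-2.80 to -1.61) and -1.74 (-2.47 to -1.12). Both genes were low in both tumour libraries. Ddit4, an inhibitor of mTOR induced by glucocorticoids, had 7 UMIs on day 4, 1 on day 21 and 37 in the control, with log2 -2.42 (-3.92 to -1.32) on day 4 and -3.9 (-9.8 to -1.89) on day 21. Without cells carrying other-lineage markers Trp53inp1 was at -2.25 and -2.06, while Cdkn1a had 0, 3 and 6 UMIs and Ddit4 2, 0 and 6.

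Other genes were lower mainly on day 21. Pim3, a survival kinase, had 51 UMIs in 20 of 22 cells on day 4, 5 in 5 of 24 cells on day 21 and 105 in 19 of 19 control cells. The log2 ratio was -1.14 (-1.66 to -0.65) on day 4 and -3.51 (-5.3 to -2.38) on day 21. Klf9, a glucocorticoid-induced repressor, had 79, 16 and 114 UMIs, with -0.63 on day 4 and -2.05 (-2.94 to -1.32) on day 21. Klf13, a related factor, had 80, 14 and 105 UMIs (-0.49 and -2.12). Nfkbia, the inhibitor of NF-kB, had 113, 25 and 168 UMIs (-0.67 and -1.98), and Herpud1, of endoplasmic reticulum protein disposal, had 154, 53 and 231 (-0.69 and -1.37). At 3000 UMIs per cell Pim3 was detected in 11, 1 and 12 cholangiocytes of day 4, day 21 and the control, and Klf9 in 12, 5 and 15. In endothelial-marker cells Pim3 was detected in 46.0%, 28.2% and 65.3%, and Klf9 in 73.3%, 43.2% and 83.5%. Without cells carrying other-lineage markers the day 21 ratios were -3.92 for Pim3, -2.16 for Klf9, -2.21 for Klf13 and -1.95 for Nfkbia.

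In the glucocorticoid response list 10 genes were measured on each day. Over all genes measured with all cells, 5.4% were at least 2-fold lower on day 4 and 6.72% on day 21. In the list on day 4, 4 were at least 2-fold lower (Cdkn1a, Ddit4, Mt1 and Mt2) and none was higher, with a median of log2 -0.59. On day 21, 4 were lower (Cdkn1a, Ddit4, Klf9 and Sgk1) and 1 was higher (Dusp1), with a median of -0.16. Among cells without other-lineage markers 6 genes of the list were measured on each day. On day 4, 1 of those 6 was lower, Mt1 (-1.29), with a median of 0.0035, and the median of the original 10 was -0.18. On day 21, Klf9 was lower and Mt1 (1.01) higher, with a median of -0.29. A hepatocyte-rich cell described below held 57 Mt1 UMIs, 67.1% of those of all day 21 cholangiocytes, and was among the cells kept. Cdkn1a, Ddit4 and Mt2 were below the minimum in the cells without other-lineage markers. Over all genes measured in those cells, 2.16% were at least 2-fold lower on day 4. On day 21, 3.74% were lower and 6.08% higher. In endothelial-marker cells the day 21 ratios were -3.44 for Ddit4, -1.69 for Pim3, -1.58 for Klf9, -1.85 for Nfkbia, -1.74 for Herpud1, -1.55 for Trp53inp1 and -0.22 for Cdkn1a. On day 4 they were -1.77 for Cdkn1a, -1.89 for Ddit4 and -0.97 for Trp53inp1. The ratios of these genes were therefore below 0 in endothelial-marker cells of the same libraries too, and whether the mice, the day or the preparation set them cannot be told apart. Ppp1r1b, a phosphatase inhibitor with no UMI in endothelial-marker cells, had 27, 3 and 32 UMIs in cholangiocytes, and its day 21 ratio was -2.47 (-5.02 to -0.99). Peg3, an imprinted zinc finger gene, had 27, 6 and 51 UMIs (-1.01 and -2.24). The other named genes lower on day 21, Nsrp1, Crebrf, Mbd1 and Chd6, lay between -2.42 and -1.86 with 3 or 4 UMIs each on day 21. Those lower on day 4, Scarb2, Fga, Wtap, Furin, Aldh6a1 and Cdc37l1, lay between -1.82 and -1.60.

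**Figure D4:**
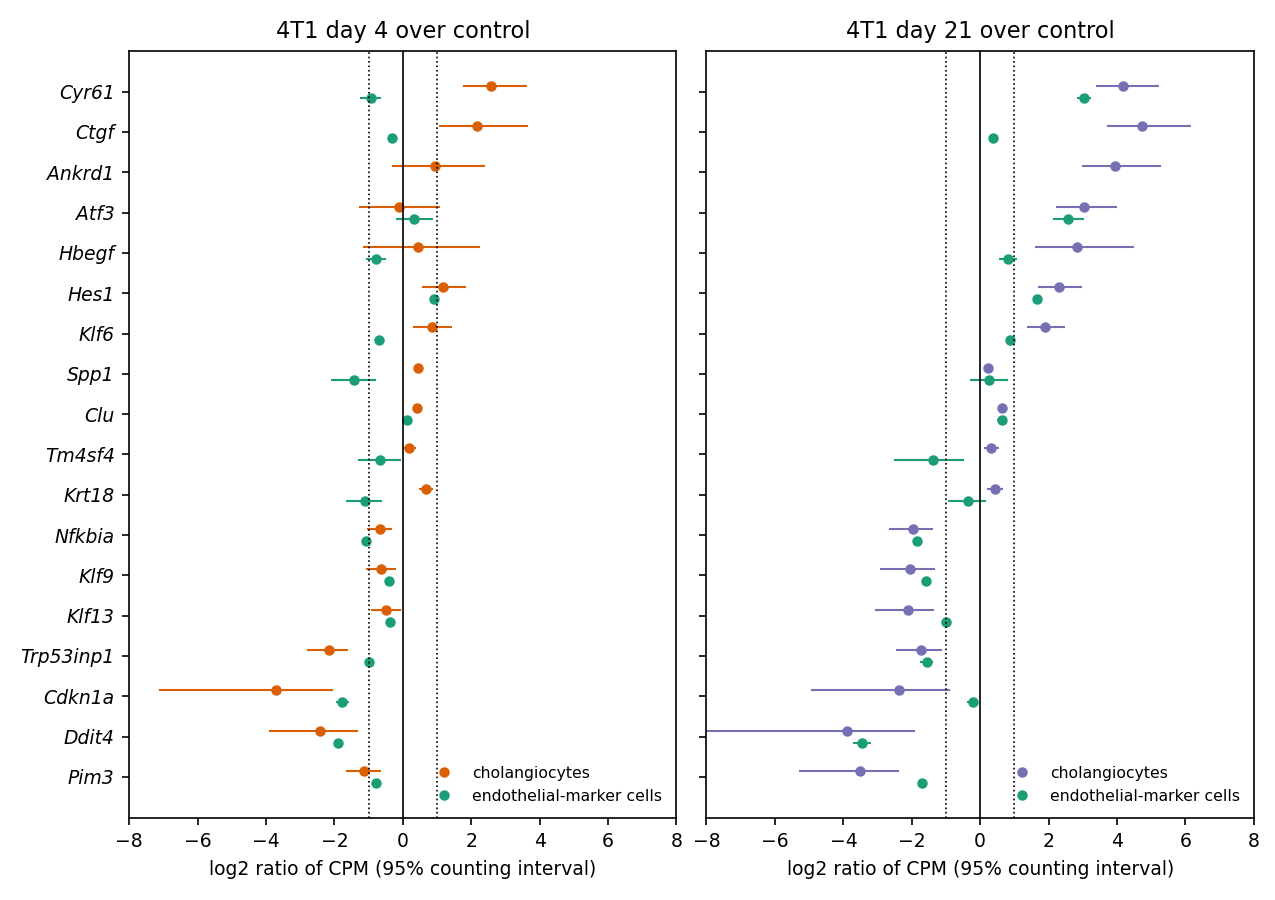
Log2 ratio of CPM over the control (horizontal axis) for 18 genes in cholangiocytes and in endothelial-marker cells, on day 4 (left) and day 21 (right). Bars are 95% counting intervals cut at 8, and dotted lines mark 2-fold. Ctgf and Ankrd1 are at 4.72 and 3.95 in cholangiocytes on day 21. Ddit4, Nfkbia, Klf9 and Trp53inp1 lie left of 0 in both cell types. Ankrd1 had no UMI in endothelial-marker cells and is not drawn for them.

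Several large day 21 ratios came from 1 cell. This cell had 22130 UMIs, the most of any day 21 cholangiocyte, and 8.92% of them were of the hepatocyte list. It held 556 of the 558 Hpx UMIs, 308 of 363 Trf UMIs, 168 of 200 C3 UMIs, 158 of 177 Gc UMIs, 132 of 137 Apoa2 UMIs, 173 of 177 Hp UMIs and 35 of 36 Ccl2 UMIs. With it, the hepatocyte list had a day 21 median of log2 2.82, with 8 of 11 measured genes at least 2-fold higher. Without the deepest cell of each library the median was -0.45. The day 21 ratios of Gc, C3 and Trf were 3.24, 2.5 and 2.45 with all cells and 0.09, 0.04 and -0.12 without the deepest cells. The higher plasma protein genes on day 21 therefore rested on this cell. Serpina1b, whose reads may be shared with near-identical family members, had 43 of 48 UMIs in it. Msmp, a secreted microseminoprotein, was likewise carried by 1 day 21 cell, with all 212 UMIs of that library, against 8 UMIs in 4 day 4 cells and 64 in 5 control cells.

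The lower stellate genes had the same shape in the control. Of 578 Dcn UMIs in control cholangiocytes 577 lay in 1 cell, and of 196 Ecm1 UMIs 195. Reln, with 27 UMIs on day 4, 4 on day 21 and 91 in the control, had 75 of the control's UMIs in 1 cell. The stellate list median was -1.51 on day 4 and -3.20 on day 21, and 3.34 and 1.72 without the deepest cell of each library. In that setting the control kept 1 UMI of Dcn and 1 of Ecm1. A day 4 cell that was kept held 194 of 197 Dcn UMIs and 80 of 81 Ecm1 UMIs of its library. A kept day 21 cell held 26 of 28 Dcn UMIs. The medians without the deepest cells therefore also rested on single cells and on counts near 0 in the control. Alb, the albumin gene, was detected in all 65 cells, at 7461 CPM on day 4, 10238 on day 21 and 8226 in the control, against 1975, 312 and 1726 CPM in the other cells. The hepatocyte-rich cell held 520 of the 1595 Alb UMIs of day 21, and the day 21 log2 ratio of Alb was 0.32 with all cells and -0.14 without the deepest cells. How much of this was free transcript in the suspension was not tested. The neutrophil genes S100a8 and S100a9 had 101 and 124 UMIs in day 21 cholangiocytes, in 24 and 23 of 24 cells, and 0 on day 4 and in the control. The other day 21 cells held them at 76113 and 84024 CPM, and 89.4% and 95.8% of day 21 endothelial-marker cells showed them at 3000 UMIs. Whether free transcript gave these UMIs in cholangiocytes was not tested.

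**Figure D5:**
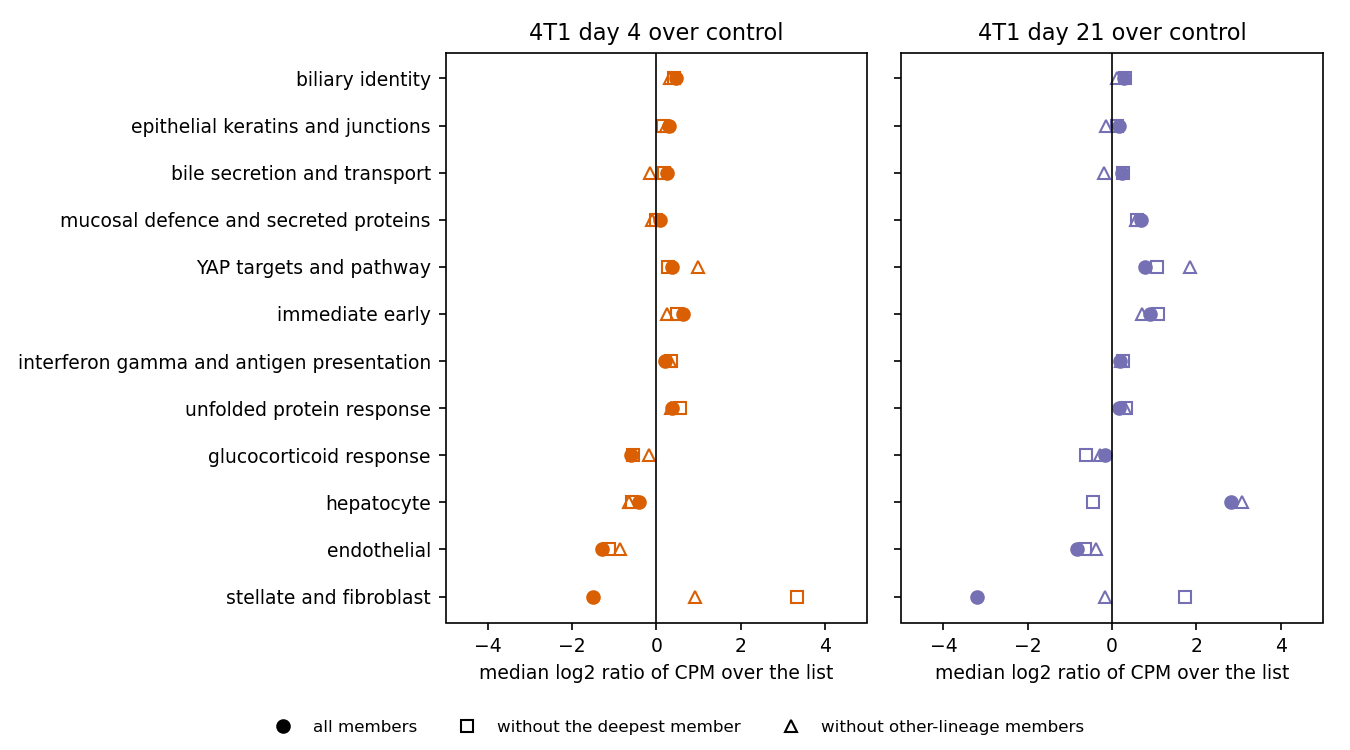
Median log2 ratio over the control (horizontal axis) for 12 gene lists in cholangiocytes on day 4 (left) and day 21 (right). Filled circles are all cells, squares leave out the deepest cell of each library and triangles leave out cells with other-lineage markers. The hepatocyte median on day 21 is 2.82 with all cells and -0.45 without the deepest, while the YAP list stays above 0 in each setting shown.

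The cholangiocytes also differed among themselves. Clustered alone, the 65 cells fell into 4 groups. The first held 25 cells, 16 of day 4, 5 of day 21 and 4 of the control. The second held 15 cells, all of day 21, none with other-lineage markers, and was led by Ankrd1, S100a9, Atf3, Ctgf, S100a8, Cyr61 and Hes1. The third held 13 cells, 3 of day 4, 1 of day 21 and 9 of the control, and was led by plasma protein genes. The fourth held 12 cells, 3 of day 4, 3 of day 21 and 6 of the control, all with other-lineage markers and led by stellate and endothelial genes. Since the groups were made from the genes described above, they are a description, and a group made of 1 library may be that library.

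Within day 21 the YAP targets were uneven. Cyr61 ranged from 0 to 2467 CPM per cell with a median of 608, Ctgf from 0 to 4042 with a median of 383, and Ankrd1 from 0 to 3108 with a median of 294. On day 4 the medians were 106, 0 and 0 CPM and the highest cells reached 1262, 759 and 499 CPM. In the control all 3 medians were 0 and the highest cells reached 546, 280 and 173 CPM. The ranges overlapped between libraries, since each had cells without a UMI of these genes. Spp1 was above 0 in every cell, with ranges of 15121 to 52515 CPM on day 4, 2792 to 71900 on day 21 and 7785 to 49024 in the control.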

How the data were processed

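The 3 libraries (34833820 UMIs on day 4, 51913215 on day 21 and 27191082 in the control) were deposited as UMI count matrices of 31053 genes. The headers of the matrices name Cell Ranger 3.1.0, and the submitters' processing notes name build mm10. The counts were used unnormalized. Other filters by the authors are not given in the sources used here.

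Barcodes needed 200 genes and at most 20% of mitochondrial UMIs, and members 3 of 6 markers. Scrublet (Scanpy 1.11.5) marked doublets, which were kept. Clustering used 2000 variable genes, 30 components, 15 neighbours and Leiden resolution 1. Endothelial-marker cells showed 3 of 6 endothelial genes. No cluster met the hepatocyte naming rule, so that comparison was not made. UMIs were summed per library, and ratio intervals are exact conditional binomial (SciPy 1.17.1). The ratios and their intervals were tested on simulated summed counts, which held no spread between cells. The other steps were not simulated.

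Named genes are the 10 largest and 10 smallest ratios per day, among genes seen in 20% of members of the higher library at no less than the level of its other cells, the 25 genes highest over other cells, and members of 32 lists. Members and lists were chosen with earlier results of these data known. Genes outside this rule were chosen after their values were seen. Alternatives changed filters, markers, doublets, depth, minimum UMIs, pseudocount and scaling. Some genes are not reported here.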

Additional observations from a re-analysis of the deposited data

How the results depend on the processing

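No paired analysis was possible because each group has 1 library. The ratios of the cholangiocyte share between libraries moved by less than their counting intervals under the filters and rules tried. The share itself left its interval in places: it was 0.677% on day 4 at the stricter filter, and 0.236% on day 4 and 0.211% in the control without other-lineage markers. Leaving out cells with 2 or more genes of the endothelial, Kupffer or leukocyte list left 8, 1 and 6 cells on day 4, on day 21 and in the control, so it gave no day 21 value. Leaving out cells with other-lineage markers, and applying the rule at 2000 UMIs, were chosen after seeing the data. The share of genes at least 2-fold different followed the minimum UMIs. For day 4 over control it was 4.6% at 100 UMIs, 15.4% at 10 and 5% with cells thinned to 1000 UMIs. For day 21 over control it was 19.1% at 10 UMIs. For day 21 over day 4 it was 5.62%, 17.9% and 3.95% at 100 UMIs, at 10 and when thinned. The biliary identity median on day 4 was 0.57 at 500 genes and 10% mitochondrial UMIs, 0.34 at 4 markers, 0.19 without cells with 2 or more other-lineage genes, 0.32 without other-lineage markers and 0.27 when thinned. On day 21 it was 0.55 at the stricter filter, 0.12 at 4 markers, 0.42 at 2 markers and 0.11 without other-lineage markers. The immediate early median on day 4 was 0.13 without cells with 2 or more other-lineage genes, 0.26 without other-lineage markers and 0.40 when thinned, and on day 21 1.32 when thinned. The YAP median was 0.98 on day 4 and 1.84 on day 21 without other-lineage markers, and 2.23 on day 21 when thinned. Ratios of 2-fold or more that changed sign were, on day 4, Dcn (8.06), Reln (0.46) and Ecm1 (6.78) at 4 markers, Dcn (6.88), Reln (0.53) and Ecm1 (5.61) without the deepest cells, and Car2 (-0.091) without cells with 2 or more other-lineage genes. On day 21 those were Apoa2 (-1.54) and Serpina1b (-0.15) at the stricter filter, Dcn at 4 markers (6.21) and without the deepest cells (5.03), Apoa2 (-0.97), Trf (-0.12) and Serpina1b (-0.0068) without the deepest cells, and Ddit4l (-0.34) when thinned. Dcn, Reln, Ecm1, Apoa2, Trf and Serpina1b had most of their UMIs of a library in 1 cell. Smaller ratios changed sign too, Alb and Spp1 on day 21 among them. The cause of the other shifts was not tested. With all cells, genes under 30 UMIs were not compared, a chosen limit. Under the alternatives a gene ratio needed only 10 UMIs, and list medians kept the same genes wherever a UMI was left. Several values with cells left out or thinned therefore rest on fewer than 30 UMIs, Ddit4l at 10 when thinned among them.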
